A study of Mus musculus with 82 samples.

Results

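The 5 genes described here encode the C/EBP transcription factors C/EBPα, C/EBPβ, C/EBPδ and C/EBPε (Cebpa, Cebpb, Cebpd and Cebpe) and interferon regulatory factor 8 (Irf8). They were taken by symbol from the tables of read counts, which list 55376 genes, and were followed through 30 mRNA-seq libraries in 11 groups. Peaks of histone marks were taken where the deposited tables name them for 1 of these genes.

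Hematopoietic stem cells (HSCs) were sorted from the bone marrow of C57BL/6J male mice as LSK CD34- Flk2- CD150+ cells. Young HSCs (YHSCs, 4 libraries) came from pooled mice of 3 to 4 months, and old HSCs (OHSCs, 8 libraries) from individual mice of 24 to 26 months, so pooling hides some of the animal-to-animal spread among YHSCs. OHSCs were also transduced with a lentivirus carrying a control shRNA (shControl) or 1 of 2 shRNAs, shRNA1 and shRNA2, against the shorter variant of Btaf1. The canonical product of Btaf1 removes the TATA-binding protein from DNA. The study proposes that the shorter form, which lacks the ATPase domain, cannot do so and competes with the canonical form. Transduced OHSCs were profiled after 3.5 days of culture, or after transplantation, sorted as LSK CD48- CD150+ CD45.2+ GFP+ cells from pools of 2 to 4 irradiated female CD45.1 recipients (2 libraries per shRNA and experiment). Common myeloid progenitors (CMP), granulocyte-macrophage progenitors (GMP) and megakaryocyte-erythroid progenitors (MEP) of young wild-type mice gave 2 libraries each. ATAC-seq of 4 YHSC and 4 OHSC libraries and H3K27ac ChIP-seq of 2 libraries per age were used for chromatin, with 2 YHSC libraries each of H3K4me3 and H3K27me3. Where a pair of libraries is not stated to come from separate animals or cultures, a p-value measures only the spread between those libraries.

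C/EBP factors are basic leucine zipper proteins that bind DNA as dimers, and they act in sequence along the myeloid pathway. C/EBPα is required for the step from CMP to GMP, C/EBPβ drives granulocyte production under cytokine or infection stress, C/EBPδ is an acute-phase member that is also active in granulocytes, and C/EBPε is needed for the granules of late neutrophils. IRF8 directs progenitors towards monocytes and dendritic cells and restrains the granulocyte fate, and it also works in B cells. MEP give rise to red cells and platelets, which form without C/EBPα.

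Reads counted on genes ranged from 20475764 to 24122404 per YHSC library, from 22175623 to 24654742 per OHSC library and from 33177394 to 42737054 in the others. The summed level of 11 long-term HSC markers was 4183 to 4236 CPM (read counts scaled to the library total) in YHSCs, 3846 to 4407 in OHSCs and 990 to 999 in CMP, which fits the labels. MEP held all 8 tested erythroid markers above CMP, but 5 of 5 tested megakaryocyte markers were below it, so erythroid and not megakaryocyte markers were prominent in these libraries. YHSC replicate 3 stood apart by the neutrophil granule gene Mpo, 29.1 CPM against 0.497 to 0.830 in the other YHSC libraries.

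In the mm10 genome (GENCODE M21), Cebpa lies on chromosome 7 from 35119293 to 35121928, Cebpb on chromosome 2 from 167688915 to 167690418 as a single exon, Cebpd on chromosome 16 from 15887286 to 15891031 and Irf8 on chromosome 8 from 120736358 to 120756694, all on the plus strand. Cebpe lies on the minus strand of chromosome 14 from 54710360 to 54712174. The starts of Cebpa and Cebpb are overlapped on the opposite strand by Gm45091 and Tmem189, the end of Cebpd is overlapped by Spidr, and Gm20388 spans Irf8 on the same strand. The labels and methods do not state whether the counting used strand, so reads of such pairs may not be separated. RefSeq (GRCm38.p6, which mm10 is) held promoters for 3 of the 5 genes, Cebpa, Cebpb and Irf8. The 250 bases before the starts of Cebpa (chr7:35119043-35119292, plus strand) and Irf8 (chr8:120736108-120736357, plus strand) are shown because both promoters carried an activating and a repressing histone mark in YHSCs, as given further on. Capitals mark TATAAA in both and the STAT-type motif TTCNNNGAA in that of Irf8.
Cebpa promoter: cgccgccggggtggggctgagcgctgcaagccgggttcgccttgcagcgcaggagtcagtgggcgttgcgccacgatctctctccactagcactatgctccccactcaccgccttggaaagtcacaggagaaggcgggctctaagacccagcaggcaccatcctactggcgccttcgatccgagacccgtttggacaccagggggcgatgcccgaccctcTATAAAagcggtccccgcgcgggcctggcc
Irf8 promoter: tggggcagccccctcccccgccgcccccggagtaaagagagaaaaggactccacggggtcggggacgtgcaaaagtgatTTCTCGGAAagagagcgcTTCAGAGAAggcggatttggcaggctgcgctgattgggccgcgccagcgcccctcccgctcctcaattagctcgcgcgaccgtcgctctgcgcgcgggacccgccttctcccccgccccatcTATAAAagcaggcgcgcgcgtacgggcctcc
A TATAAA stood in 12.4% of the 32851 RefSeq promoters cut to 250 bases, on either strand, and a TTCNNNGAA in 7.02%. The Irf8 promoter held 2 of the latter, TTCTCGGAA and TTCAGAGAA. The Cebpb promoter (81.6% G and C) held none of the 8 motifs searched, which besides these were the C/EBP motif TTGCNNAA, the CRE motif TGACGTCA, the ETS motif GAGGAA, the GATA motif AGATAA, the AP-1 motif TGANTCA and the RUNX motif TGTGGT.

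Cebpa was near silent and Irf8 low in stem cells, and both were strongly expressed in CMP and GMP. Cebpa stood at 50.4 and 57.3 CPM in the CMP libraries and at 56.1 and 74.3 CPM in the GMP libraries. In the HSC libraries, all ages and treatments together, it ranged from 0.375 to 1.61 CPM. In the MEP libraries it had 2 and 6 reads, 0.0563 and 0.170 CPM. Per the methods, young and old HSCs and transplanted HSCs were prepared with different SMART-Seq kits and sequencers. Orders of levels across experiments, here and below, therefore mix cell state with experiment, and the 2 cannot be told apart. By these values, CMP and GMP overlapped, every HSC library lay far below them, and MEP lay below every HSC library.

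Irf8 followed the same order. It stood at 427 and 385 CPM in CMP and at 537 and 408 CPM in GMP, which overlap. The 4 YHSC libraries had 10.7, 10.9, 13.7 and 11.7 CPM and lay above all other HSC libraries, which ranged from 4.64 to 9.73 CPM. In the order of their means, OHSCs and the 3 cultured groups overlapped the next, as did cultured and transplanted cells with shRNA1, while the transplanted controls (5.03 and 5.05 CPM) lay just below transplanted cells with shRNA1 and just above those with shRNA2 (4.94 and 4.64 CPM). MEP were lowest, with 0.986 and 0.396 CPM.

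Cebpe was the most restricted of the 5. It stood at 45.3 and 54.5 CPM in GMP and at 7.26 and 4.71 CPM in CMP. No HSC or MEP library exceeded 1.83 CPM, and the 6 cultured libraries held 0 or 2 reads each. For 0 reads, 3 counts set the upper limit, 0.0702 to 0.0732 CPM in the 4 cultured libraries without a read, for counting error only.

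Cebpb and Cebpd were expressed in every library. Cebpb ran from 103.4 and 124 CPM in GMP to 16.5 and 12.3 CPM in MEP. In plain CPM, and across separate experiments, cultured OHSCs reached the level of GMP, 98.6 and 106 CPM with shRNA2 and 104 and 87.0 CPM with shRNA1. The cultured controls (70.5 and 74.1 CPM) lay below both. Transplanted cells, OHSCs and CMP followed, each overlapping the next in the order of means, from 65.7 down to 40.9 CPM, and YHSCs (33.4 to 36.2 CPM) lay below all of them.

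Cebpd stood at 58.4 and 89.2 CPM in GMP, at 38.7 and 49.2 CPM in CMP and at 28.5 to 33.4 CPM in the cultured libraries, 3 levels that did not overlap. OHSCs (16.2 to 20.7 CPM) overlapped transplanted cells with shRNA1 (15.3 and 19.1 CPM). The transplanted controls (15.4 and 12.3 CPM), MEP (12.7 and 12.9 CPM), transplanted cells with shRNA2 and YHSCs (10.96 to 12.6 CPM) followed, each overlapping the group before it.

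Levels of different genes are compared per kb of merged exon. The merged exons span 7055 bases over 7 transcripts for Irf8 and 3746 over 2 for Cebpd, against 1504 over 1 for Cebpb. Dividing by them can understate genes with several transcripts, so the order of genes depends on the divisor. In plain CPM, the GMP means were 472 for Irf8 and 114 for Cebpb. In YHSCs, Cebpb led with 23.4 ± 0.870 CPM per kb (SD, n = 4), above Cebpd at 3.13 ± 0.209, Irf8 at 1.67 ± 0.194, Cebpe at 0.331 ± 0.141 and Cebpa at 0.307 ± 0.0302 CPM per kb. In CMP the first place passed to Irf8 with 57.5 CPM per kb, followed by Cebpb at 32.0 and Cebpa at 20.4. In GMP, Cebpb (75.7 CPM per kb) and Irf8 (66.9) led, Cebpe stood at 40.2, Cebpa at 24.7 and Cebpd at 19.7. Stem cells thus carried mainly Cebpb transcripts, while CMP and GMP carried all 5.

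**Figure D1:**
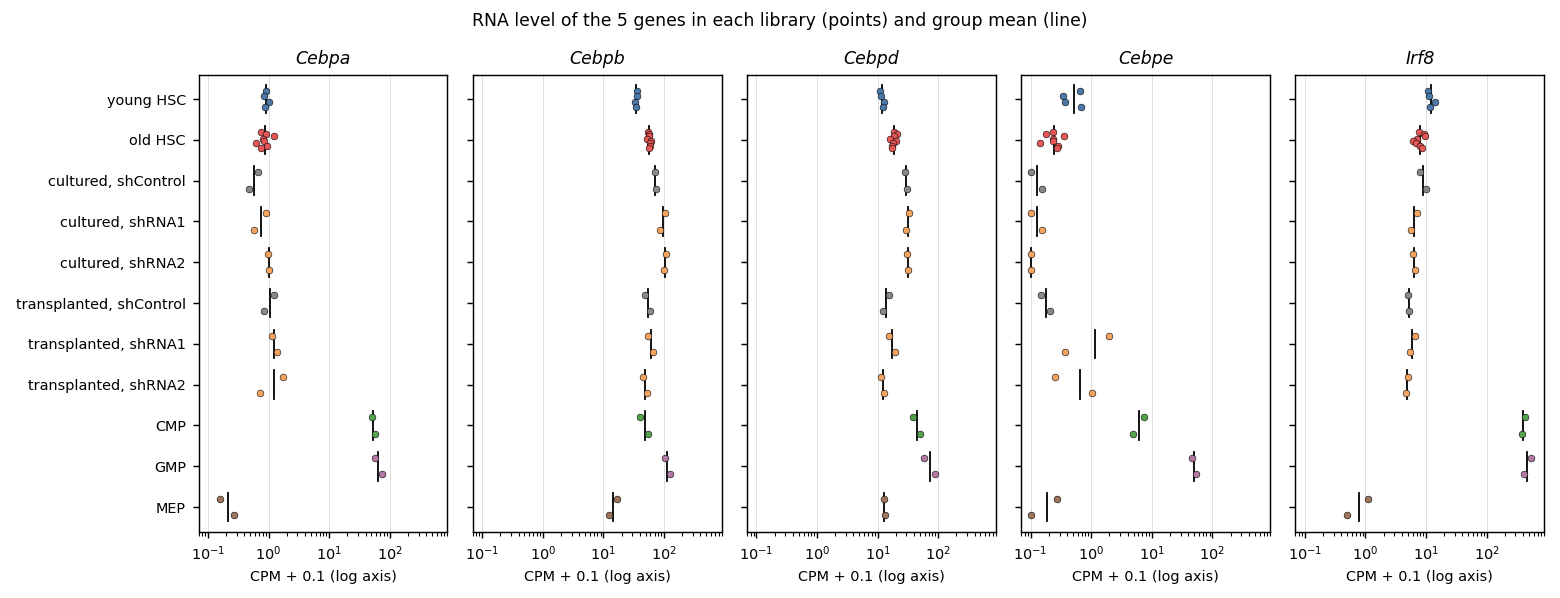
Level of each gene in each mRNA-seq library, as CPM + 0.1 on a log axis; points are libraries, vertical lines are group means and colours are groups. Cebpa, Cebpe and Irf8 rise from HSCs to CMP and GMP and are lowest or near 0 in MEP, whereas Cebpb and Cebpd are present throughout, with Cebpb between 12.3 and 124 CPM.

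To ask how the factors differ at the branch of the myeloid pathway, GMP and MEP were each compared with CMP (edgeR's quasi-likelihood test, Benjamini-Hochberg adjusted). A gene was called when it moved by over 1.5-fold with an adjusted p under 0.05. Both comparisons share the CMP libraries. From CMP to GMP, 3 of the 5 genes were called higher, against 6.25% of the 18234 genes tested. Cebpe rose most, with a log2 fold change of 3.28 (SE 0.254, adjusted p = 1.9e-05), then Cebpb with 1.46 (SE 0.188, adjusted p = 0.0015) and Cebpd with 0.97 (SE 0.213, adjusted p = 0.015). For all 3, both GMP libraries lay above both CMP libraries, as they did, in either direction, for 69.6% of genes. Fitted in the 2 groups alone, Cebpd did not pass (0.93, adjusted p = 0.088), nor did it without CMP replicate 1 (0.80, adjusted p = 0.085). Here and below, a fit that leaves a group with 1 library takes its spread from the other groups, so the lone library is assumed to vary like them.

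Cebpa and Irf8 were not called between CMP and GMP. Cebpa had a log2 fold change of 0.50 (SE 0.131, adjusted p = 0.012), below 1.5-fold, as 34.8% of genes passed this p at any fold, and its CPM overlapped. Without GMP replicate 1 Cebpa was a call (0.69, adjusted p = 0.00088), and without CMP replicate 1 or GMP replicate 2 it lost the adjusted p (0.40 and 0.27, adjusted p = 0.10 and 0.14). Irf8 had 0.44 (SE 0.181, adjusted p = 0.16). Blocking on replicate number gave Irf8 0.43 with an adjusted p of 0.0009, still below 1.5-fold, while leaving out GMP replicate 2 gave 0.62 with 0.0061, which is a call, so whether Irf8 was called rested on that library. Mpo alone took 4.47% and 4.49% of the reads in GMP and 1.38% and 1.64% in CMP, and the fit scales for such composition (TMM), while plain CPM does not.

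All 5 genes were called lower in MEP than in CMP, against 29.2% of genes called lower. Irf8 had a log2 fold change of -9.07 (adjusted p = 3.5e-05), Cebpa -8.74 (adjusted p = 1.3e-10) and Cebpe -5.97 (adjusted p = 1.1e-05), each with both MEP libraries below 1 CPM. All reads of Cebpe in MEP came from replicate 1, and without it the fitted value was -10.6, which depends on the prior count. No MEP library reached a CMP library for any of the 5, as for 82.6% of genes in either direction. Cebpb and Cebpd fell by less, with -1.63 (SE 0.205) and -1.66 (SE 0.232). Against GMP, where 27.2% of genes were called lower, the 5 values ran from -2.63 for Cebpd to -9.51 for Irf8, all called.

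Genes around these factors were read against the shares of all genes tested, 6.25% higher and 10.5% lower in GMP than in CMP, and 17.5% higher and 29.2% lower in MEP. Of 17 granulocyte genes tested, 6 were higher and none lower in GMP than in CMP. Among them Elane, encoding neutrophil elastase, had a log2 fold change of 3.27 and Ms4a3 2.89 (median of the list 0.11, of all genes 0.01). In MEP, 11 of 17 were lower (median -2.46, all genes -0.07). Of 18 monocyte and dendritic cell genes, 3 were higher and 6 lower in GMP than in CMP (median -0.02). Ly6c2, a monocyte surface marker, had 3.18 and Cybb, the phagocyte oxidase subunit, 2.64, while Flt3, the receptor of early lymphoid and dendritic progenitors, had -3.46. All 18 were lower in MEP (median -4.87).

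Of 20 partner and opposing lineage factors, 3 were higher and 9 lower in GMP than in CMP (median -0.34). The erythroid regulators Gata1 (log2 fold change -3.99) and Klf1 (-5.18) were among the 9. In MEP, 7 were higher and 12 lower than in CMP, with Spi1, encoding the PU.1 partner of IRF8 and C/EBPα, at -7.34 and the granulocytic repressor gene Gfi1 at -7.92. Of 15 regulators of C/EBP level and activity, 3 were higher and 2 lower in GMP. Trib2, whose product targets C/EBPα for degradation, fell from 53.9 ± 1.71 to 0.378 ± 0.0231 CPM (log2 fold change -6.92, adjusted p = 1.0e-11; SD, n = 2). The GM-CSF receptor gene Csf2ra had 1.42. In MEP, 10 of the 15 were lower, led by the cytokine receptor genes Csf2rb (-9.10), Il6ra (-8.98) and Csf3r (-8.03). The other IRF genes went lower in GMP in 4 of 7 and higher in none, and none of the 3 other C/EBP family genes (Cebpg, Cebpz and Ddit3) was called there. In MEP, 4 of the 7 other IRF genes were lower than in CMP, led by Irf1 (-4.06), and 1 was higher (Irf7), while of the other C/EBP family genes Ddit3 was higher (0.75).

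Between YHSCs and CMP all 5 genes were called higher in CMP, against 23.2% of 22360 genes, without overlap (86% of genes), with log2 fold changes of 6.41 for Cebpa, 5.48 for Irf8, 4.19 for Cebpe, 2.27 for Cebpd and 0.82 for Cebpb. The median of all genes was -0.34. Here 6 of 17 granulocyte genes and 9 of 20 monocyte and dendritic cell genes were higher, 6 of the latter 20 and all 11 HSC markers were lower, and 6 of 8 other IRF genes were lower, with Irf2 at -1.42, against 41% of all genes called lower. The labels number a batch for the CMP libraries and none for these HSC libraries, so batch and cell type cannot be told apart in this comparison. Like every comparison of bulk libraries here, it also cannot tell fewer expressing cells from less RNA per cell.

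**Figure D2:**
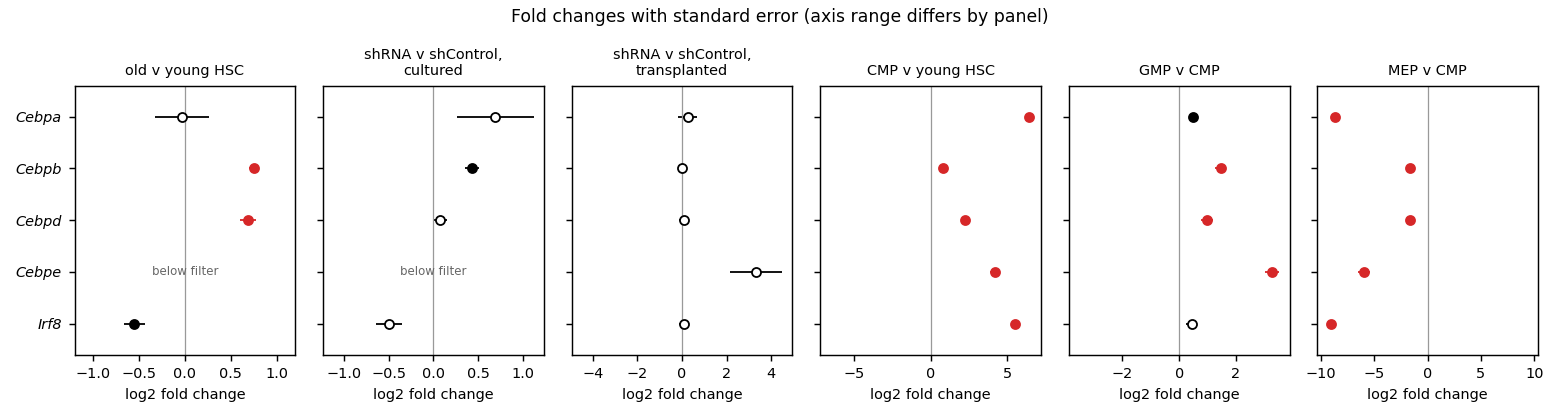
Log2 fold change (edgeR) with its standard error for each gene in 6 comparisons; the x axis differs between panels. Red points were called, black points passed an adjusted p of 0.05 below 1.5-fold and open points did not pass; Cebpe was below the filter with age and in culture. The age panel shows Cebpb and Cebpd to the right and Irf8 to the left, and the MEP panel shows all 5 to the left.

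With age, Cebpb and Cebpd rose in HSCs, Irf8 was lower and Cebpa did not move measurably. Of the 4 genes tested, 2 were called higher (4.8% of 21522 genes were) and none lower (2.77%). Cebpb read 36.2, 36.1, 33.4 and 35.03 CPM in the YHSC libraries, and the lowest, median and highest OHSC libraries read 53.3, 57.4 and 61.1 CPM. Its log2 fold change was 0.76 (SE 0.0532, adjusted p = 1.7e-10). Cebpd read 10.96, 11.2, 12.6 and 12.1 CPM in YHSCs and 16.2, 18.1 and 20.7 CPM at the lowest, median and highest OHSC library, a log2 fold change of 0.69 (SE 0.0842, adjusted p = 1.1e-06). For both, the lowest OHSC library lay above the highest YHSC library. Libraries of the ages did not overlap, in either direction, for 15.1% of genes. Leaving out any library kept the log2 fold changes within 0.724 to 0.773 for Cebpb and 0.645 to 0.717 for Cebpd.

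Irf8 went from the YHSC values given above to 6.06, 7.66 and 9.52 CPM at the lowest, median and highest OHSC library, again without overlap. Its log2 fold change of -0.55 (SE 0.115, adjusted p = 0.00095) passed the adjusted p, as for 21.1% of genes, but lay below 1.5-fold. Leaving out 1 library gave -0.60 to -0.48. Without YHSC replicate 3, the highest library, it was -0.48 (adjusted p = 0.0091), and without YHSC replicate 1 or 2 or OHSC replicate 2 or 3 it passed 1.5-fold and was a call (-0.59, -0.60, -0.59 and -0.60). B cell markers moved with it. Their summed level over 7 genes was 78.3 to 133 CPM in YHSCs and 37.0 to 44.3 CPM in OHSCs, 5 of 7 were called lower and none higher, and Cd79a fell from 22.02 ± 9.89 (SD, n = 4) to 0.819 ± 0.315 CPM (SD, n = 8). None of the 7 was at 0 in a YHSC library, and 1 was at 0 in 1 OHSC library. Irf8 is also a B cell gene, and the part of such RNA in its difference was not tested.

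Cebpa and Cebpe were at the edge of detection in HSCs of either age. Cebpa had 15 to 20 reads per YHSC library and 13 to 27 per OHSC library, which gave a log2 fold change of -0.03 (SE 0.295, adjusted p = 0.96), an error wide enough to hide a moderate change. Cebpe had 13, 5, 6 and 14 reads in YHSCs and between 1 and 6 in OHSCs and fell below the filter on low counts. Without the filter its log2 fold change was -1.48 (SE 0.596, adjusted p = 0.11).

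Among genes around these factors, 4 of 15 regulators of C/EBP level and activity rose with age and 2 fell (median log2 fold change 0.08, all genes 0.00). Socs3, a feedback inhibitor of cytokine signalling, rose from 11.8 ± 4.29 to 50.5 ± 13.5 CPM, and Id2, an inhibitor of helix-loop-helix factors, from 22.9 ± 0.919 to 55.9 ± 4.43 CPM (SD, n = 4 and 8). The G-CSF receptor gene Csf3r had a log2 fold change of 0.91 and Trib1 0.66, while Csf2rb had -1.29 and Id1 -1.08. Stat3, which acts upstream of Cebpb and Cebpd in cytokine signalling, had 0.50 (adjusted p = 3.8e-10), below 1.5-fold. Of 21 partners and opponents, Jun (1.33) and Bcl6 (1.29) rose and Klf1 (-1.92) and Gata1 (-1.40) fell. Spi1 had -0.36, below 1.5-fold. The other C/EBP family genes gave no call in 3, and the other IRF genes 1 lower in 8 (Irf4, -2.04).

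Of 16 granulocyte genes tested with age, 1 was higher, Prtn3, encoding proteinase 3, at 127 ± 6.80 CPM in YHSCs and 309 ± 17.2 CPM in OHSCs (SD, n = 4 and 8), and 3 were lower (median -1.86), among them Mpo, whose level in YHSCs rested on replicate 3. The summed level of the list was 132 to 387 CPM in YHSCs and 299 to 453 CPM in OHSCs. Without YHSC replicate 3, an omission added after the data were seen, no granulocyte gene was lower, Prtn3 alone was higher and the median was -0.78. The remaining YHSC sums of 132 to 262 CPM lay below all OHSC sums. With Prtn3 at 127 CPM in YHSCs and 309 CPM in OHSCs, these sums largely follow that gene and do not show a rise of the list. Of 17 monocyte and dendritic cell genes, none was higher and 4 were lower, among them Ctss (-1.39) and Flt3 (-0.89). Calls in the remaining lists were 1 higher of 11 HSC markers (Slamf1, 0.85), 2 higher and 3 lower of 8 erythroid markers, 2 higher of 5 megakaryocyte markers (Itga2b, 1.25, and Vwf, 1.21), 1 higher and 1 lower of 9 stress genes (Jun, 1.33, and Dusp1, -0.60), and none of 6 macrophage or 2 T and NK cell markers.

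ATAC-seq, which reads open chromatin, gave 73 consensus regions whose middle lay within 60 kb of the start of 1 of the 5 genes. Of these, 58 passed 1.5 CPM in at least 4 libraries and were tested with edgeR on all 89245 such regions (a call needed over 1.5-fold and an adjusted p under 0.01). Of the 58, 2 were called more open in OHSCs and 2 less open, against 10.1% and 2.9% of all regions. The median log2 fold change was -0.06 near the 5 genes and -0.01 over all regions. YHSC and OHSC libraries did not overlap for 12 of the 58, against 29.4% of all regions. The shares more open and without overlap thus lay below those of all regions, and the share less open lay near its background. These shares were not tested, and single regions within the 5 loci differed.

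Regions over the starts moved little. That of Cebpd (chr16:15886571-15888333) was at 62.5 ± 1.17 CPM in YHSCs and 76.1 ± 3.72 CPM in OHSCs (SD, n = 4 each), without overlap, a log2 fold change of 0.27 (SE 0.0457, adjusted p = 3.4e-06) below 1.5-fold, as 23.2% of regions passed this p at any fold. That of Cebpb was at 8.20 ± 0.663 and 8.16 ± 0.271 CPM (-0.02, adjusted p = 0.93), although its RNA rose. That of Cebpa was at 53.6 ± 0.587 and 47.8 ± 2.53 CPM (-0.18, adjusted p = 0.0031), and that of Irf8 at 11.2 ± 1.1 and 9.13 ± 0.864 CPM (-0.31, adjusted p = 0.017). An open Cebpa promoter thus stood over a gene with hardly any reads. No consensus region covered the start of Cebpe, and the nearest upstream region, 0.9 kb away, was below the filter.

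The 4 regions called with age lay away from the starts. Their central 300 bases are shown because they are where chromatin around these genes opened or closed, read from GRCm38, on the strand of the gene named. They are Cebpb +26.4 kb (chr2:167715172-167715471, plus strand, in an intron of the lincRNA gene A530013C23Rik), Cebpd +10.8 kb (chr16:15897935-15898234, plus strand, in an intron of Spidr), Cebpe -2.3 kb (chr14:54714345-54714644, minus strand, intergenic) and Cebpe -16.8 kb (chr14:54728870-54729169, minus strand, in an intron of Slc7a8). Capitals mark TTGCNNAA and AGATAA in the first, TTCNNNGAA in the third, and TGANTCA and the reverse complement of TGTGGT in the fourth.
Cebpb +26.4 kb: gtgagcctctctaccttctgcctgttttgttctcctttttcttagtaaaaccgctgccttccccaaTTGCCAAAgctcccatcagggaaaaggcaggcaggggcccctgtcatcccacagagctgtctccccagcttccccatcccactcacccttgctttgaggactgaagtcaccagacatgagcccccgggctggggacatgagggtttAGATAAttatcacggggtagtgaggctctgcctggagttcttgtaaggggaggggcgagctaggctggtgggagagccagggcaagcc
Cebpd +10.8 kb: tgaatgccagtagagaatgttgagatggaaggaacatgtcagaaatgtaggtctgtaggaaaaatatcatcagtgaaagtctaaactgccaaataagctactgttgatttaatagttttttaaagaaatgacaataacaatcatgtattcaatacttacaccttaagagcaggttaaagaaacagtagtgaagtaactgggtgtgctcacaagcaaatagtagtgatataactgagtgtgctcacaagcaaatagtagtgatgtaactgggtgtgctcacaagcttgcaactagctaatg
Cebpe -2.3 kb: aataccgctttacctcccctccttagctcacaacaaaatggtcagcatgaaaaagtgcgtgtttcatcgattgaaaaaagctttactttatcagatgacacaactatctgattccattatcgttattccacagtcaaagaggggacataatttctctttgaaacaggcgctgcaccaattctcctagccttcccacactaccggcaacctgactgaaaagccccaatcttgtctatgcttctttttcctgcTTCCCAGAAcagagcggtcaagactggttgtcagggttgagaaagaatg
Cebpe -16.8 kb: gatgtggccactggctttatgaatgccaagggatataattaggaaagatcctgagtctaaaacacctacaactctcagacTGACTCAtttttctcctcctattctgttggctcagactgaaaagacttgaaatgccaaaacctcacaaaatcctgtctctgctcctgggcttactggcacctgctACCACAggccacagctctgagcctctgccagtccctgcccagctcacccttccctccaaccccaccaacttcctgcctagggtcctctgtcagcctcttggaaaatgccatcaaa
In the central 300 bases of 89235 tested regions, TTGCNNAA occurred in 12.3%, AGATAA in 14.3%, TTCNNNGAA in 9.36%, TGANTCA in 11.8% and TGTGGT in 27.3%. The Cebpd region held none of the motifs searched.

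Cebpd +10.8 kb opened from 1.58, 0.907, 1.19 and 1.37 CPM in the YHSC libraries to 3.34, 4.28, 3.78 and 4.53 CPM in the OHSC libraries. Its log2 fold change was 1.62 (SE 0.204, adjusted p = 4.1e-09). Cebpe -16.8 kb opened from 0.712, 0.778, 1.498 and 1.71 CPM to 4.54, 3.97, 2.82 and 3.09 CPM, a log2 fold change of 1.56 (SE 0.232, adjusted p = 2.6e-07). Both were low in either age and did not overlap, and each reached the filter of 4 libraries through the OHSC libraries, with 1 YHSC library above 1.5 CPM.

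Cebpb +26.4 kb closed, against the direction of Cebpb RNA, from 2.61, 1.81, 1.65 and 1.75 CPM to 0.549, 0.540, 0.795 and 0.586 CPM, a log2 fold change of -1.67 (SE 0.276, adjusted p = 2.1e-06). It reached the filter only through the 4 YHSC libraries, so it was tested because it was high there. Cebpe -2.3 kb closed from 7.00, 5.70, 5.99 and 5.33 CPM to 4.49, 3.43, 3.34 and 4.30 CPM, a log2 fold change of -0.65 (SE 0.148, adjusted p = 0.00043). This value lies near the threshold. Without YHSC replicate 1, OHSC replicate 6 or OHSC replicate 7 it was at -0.57, -0.58 and -0.57, below 1.5-fold. The first omission, with the filter on low counts applied anew, left Cebpb +26.4 kb untested, so 2 of the 4 calls stood. With the tested regions held fixed, a choice made after this was seen, Cebpb +26.4 kb was at -1.49 and 3 stood.

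Regions at distances known for enhancers of these genes were not called. The first pair is shown because both were well open in stem cells and carry motifs of myeloid factors. Cebpa +37.3 kb (chr7:35156484-35156783, plus strand, intergenic) lies at the distance of the known myeloid Cebpa enhancer, and Cebpe +6 kb (chr14:54705987-54706286, minus strand, intergenic) at that of a known neutrophil enhancer. Capitals mark the reverse complement of TGTGGT in the first, and TTGCNNAA or its reverse complement and AGATAA in the second.
Cebpa +37.3 kb: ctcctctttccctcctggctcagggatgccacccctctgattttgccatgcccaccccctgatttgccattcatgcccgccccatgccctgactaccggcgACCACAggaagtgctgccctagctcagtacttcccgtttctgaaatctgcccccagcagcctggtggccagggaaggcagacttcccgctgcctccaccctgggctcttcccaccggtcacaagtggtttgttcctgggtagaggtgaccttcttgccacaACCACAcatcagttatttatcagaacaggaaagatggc
Cebpe +6 kb: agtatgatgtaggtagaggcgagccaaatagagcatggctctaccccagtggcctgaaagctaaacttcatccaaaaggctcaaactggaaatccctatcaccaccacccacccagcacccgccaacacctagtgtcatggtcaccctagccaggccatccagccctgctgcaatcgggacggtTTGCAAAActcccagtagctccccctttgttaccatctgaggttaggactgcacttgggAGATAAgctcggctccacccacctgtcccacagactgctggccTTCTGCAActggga
Cebpa +37.3 kb was at 24.1 ± 1.45 CPM in YHSCs and 23.0 ± 2.66 CPM in OHSCs (log2 fold change -0.08, SE 0.0733), and Cebpe +6 kb at 23.7 ± 0.908 and 22.5 ± 0.521 CPM (-0.08, SE 0.0686; SD, n = 4 each). Both were open in stem cells, where their genes gave almost no reads. The regions 56.6 kb downstream and 50.1 kb upstream of Irf8 were weak in either age, the former below the filter and the latter at 2.05 and 1.94 CPM.

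**Figure D3:**
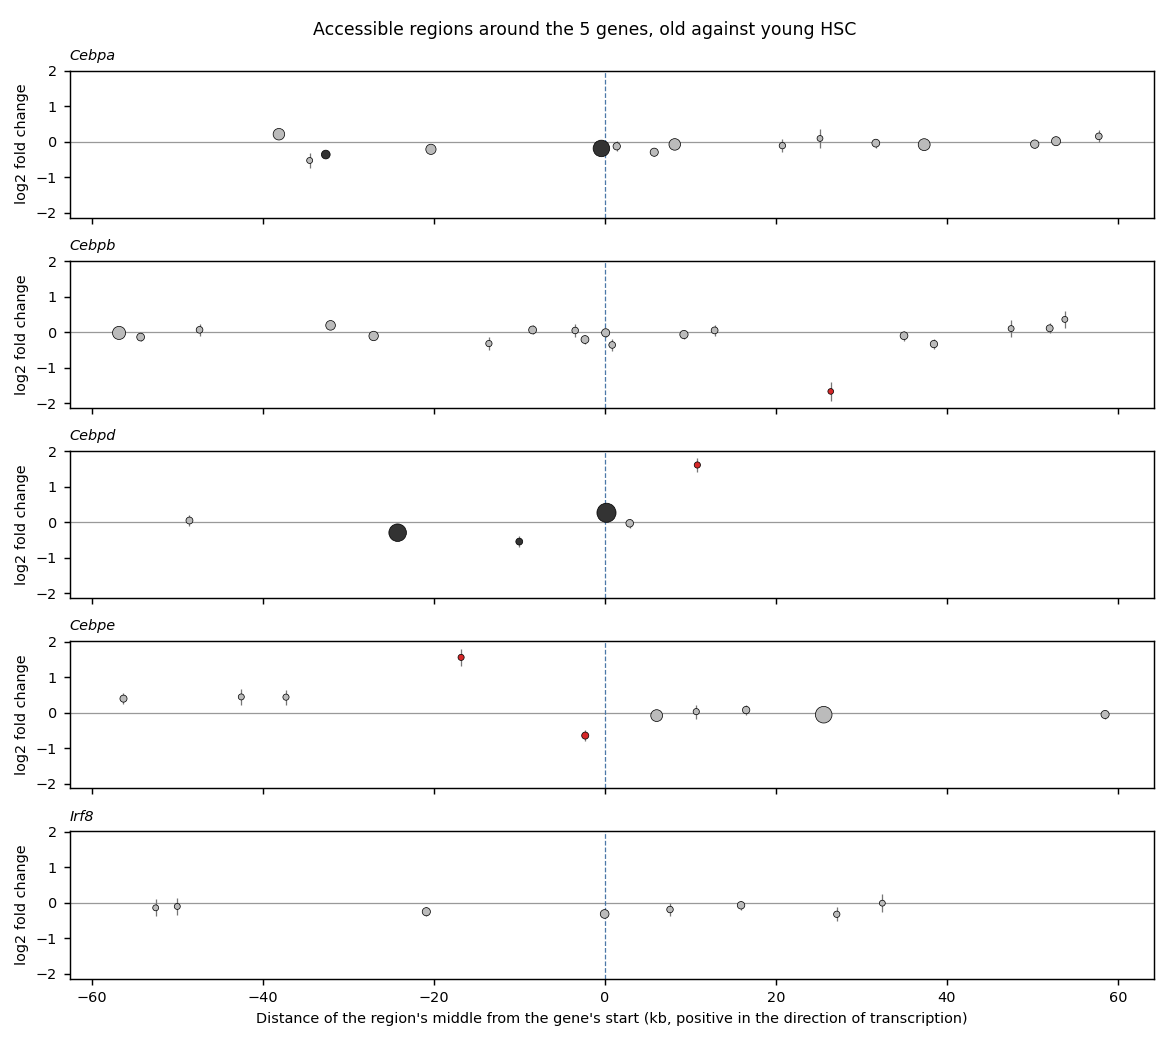
Log2 fold change with standard error, OHSC against YHSC, of the 58 tested ATAC-seq regions by distance of their middle from the start of each gene in kb; circle area grows with the mean CPM. Red regions were called, black ones passed an adjusted p of 0.01 below 1.5-fold and grey ones did not pass; the 4 red regions lie at +26.4, +10.8, -2.3 and -16.8 kb.

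H3K27ac marks active promoters and enhancers, and 8 of its peaks were named for the 5 genes. None passed limma's test on log2(signal + 0.5) (3.18% of 39557 peaks had an adjusted p below 0.05, and 17.5% an unadjusted p below 0.05, again none of the 8). None passed the rule of ratios either, a ratio of means above 1.5 with each old at least 1.2 times each young library or the reverse (11.4% of peaks). Cebpa carried the peaks that moved most, in opposite directions. The peak at -0.9 kb read 1.65 and 1.32 in YHSCs and 1.76 and 2.06 in OHSCs, and the peak at +0.4 kb 1.47 and 1.28 against 1.11 and 0.708 (adjusted p = 0.50 and 0.34). The ratio of means was 1.05 at Cebpb, 1.19 at Cebpd and 0.928 at the start of Irf8. The Irf8 peaks at +7.5 kb (1.98 and 1.75 in YHSCs, 2.16 and 2.32 in OHSCs) and +15.9 kb (2.24 and 2.10, 2.35 and 2.41) were higher in OHSCs without overlap. YHSC and OHSC libraries did not overlap for 5 of the 8 peaks, against 47.6% of all peaks. For 4 of the 8 they did not overlap and were higher in OHSCs, against 29.9% of all peaks.

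Within 60 kb of the starts lay 24 further peaks not named for the 5 genes, of which 3 passed the rule of ratios as higher and 1 as lower, against 9.11% and 2.27% of all peaks. At -17.1 kb from Cebpe, inside Slc7a8, H3K27ac went from 0.919 and 0.803 to 1.51 and 1.98, a ratio of 2.03 (limma adjusted p = 0.060). This peak overlaps the region opened at -16.8 kb. Inside Cebpd, 3.4 kb downstream of its start, a peak named for Spidr went from 1.79 and 1.86 to 2.73 and 3.03. This is a ratio of 1.58 (limma adjusted p = 0.091), so a peak within 1 of the 5 genes passed the rule of ratios. Others lay at -56.3 kb from Cebpe (ratio 1.56, higher in OHSCs) and at -26.9 kb from Cebpb near a Tmem189 start (0.662, lower).

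In YHSCs, H3K4me3, the mark of active or poised starts, covered the starts of Cebpa, Cebpb, Cebpd and Irf8 with a mean signal of 15.7, 12.9, 17.0 and 11.8, at the 73.4, 68.2, 76.1 and 66.0 percentile of 33199 peaks. The peak over Cebpa was 3011 bases wide, wider than 99.0% of peaks. H3K27me3, the Polycomb mark of repressed genes, covered the starts of Cebpa (0.901, at the 96.7 percentile of 55820 peaks) and Irf8 (0.661, at the 92.6 percentile) but no start of Cebpb, Cebpd or Cebpe. The starts with both marks thus belonged to Cebpa and Irf8, those with H3K4me3 alone to Cebpb and Cebpd, and Cebpe had neither mark at its start. In YHSCs the levels per kb of merged exon, given above, were 0.307 CPM per kb for Cebpa and 1.67 for Irf8 against 23.4 for Cebpb and 3.13 for Cebpd. In plain CPM the YHSC means of Irf8 and Cebpd were alike, 11.8 and 11.7. H3K36me3, which marks transcribed bodies, was deposited as domains that name no sample, so they cannot be given to 1 age. They covered 87.0% of Irf8 and 0.828% of Cebpd and missed the other 3 genes, while touching 66.3% of 21938 protein-coding genes. H3K4me3 and H3K27me3 were not compared between ages here.

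**Figure D4:**
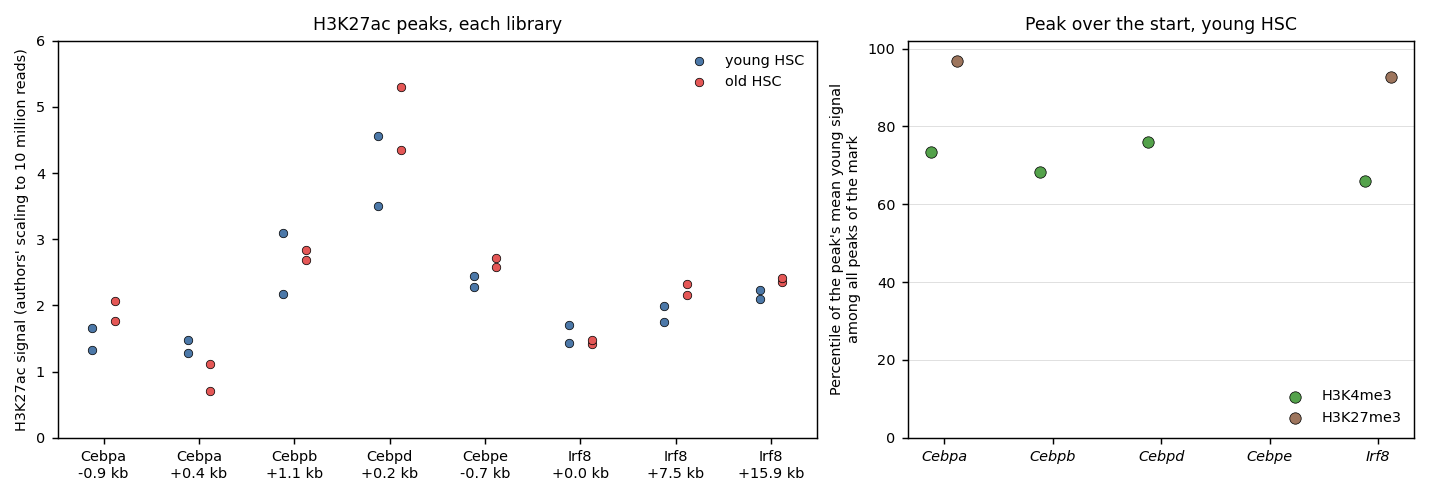
Left, H3K27ac signal (scaled by the authors to a common read depth) of the 8 peaks named for the genes, each point 1 library, YHSC blue and OHSC red, by distance from the gene's start; right, percentile of the mean YHSC signal of the H3K4me3 and H3K27me3 peaks over each start among all peaks of that mark. H3K27me3 points appear for Cebpa and Irf8, at 96.7 and 92.6, and none for the others.

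To ask how the factors respond to loss of the Btaf1 variant, OHSCs with either shRNA were compared with shControl. The gene-level count of Btaf1, which mixes both variants, fell from 139 ± 2.93 (SD, n = 2) to 113 ± 4.08 CPM (SD, n = 4) in culture, a log2 fold change of -0.31 (SE 0.0465, adjusted p = 0.0015). After transplantation it was at 163 ± 3.45 and 127 ± 10.2 CPM, -0.37 (SE 0.0766, adjusted p = 0.79). With age it had stood at 0.54.

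In culture, none of the 4 genes tested was called (0.906% of 19763 genes were, 0.582% higher and 0.324% lower). Cebpb differed most clearly. It read 70.5 and 74.1 CPM with shControl, 104 and 87.0 CPM with shRNA1 and 106 and 98.6 CPM with shRNA2, so all 4 shRNA libraries lay above both controls. Its log2 fold change of 0.44 (SE 0.0781) had an adjusted p of 0.0093, below 1.5-fold, as 3.36% of genes passed the adjusted p at any fold. The adjusted p was 0.19 and 0.10 without control replicate 1 or 2, fits in which 1 control stands alone.

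Irf8 went the other way. It read 7.79 and 9.73 CPM with shControl, 7.04 and 5.54 CPM with shRNA1 and 6.07 and 6.54 CPM with shRNA2, again without overlap, as for 25.4% of genes. Its log2 fold change of -0.49 (SE 0.145) had an adjusted p of 0.089, and 0.031 without the filter on low counts. Cebpd (0.08, SE 0.0787, adjusted p = 0.73) and Cebpa (0.69, SE 0.427, adjusted p = 0.49, at 14 to 38 reads) did not pass, and Cebpe had too few reads to test.

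Of the surrounding genes in culture, 1 of 15 regulators of C/EBP level and activity was called, Id2 (78.04 ± 0.885 to 138 ± 9.31 CPM, log2 fold change 0.80; SD, n = 2 and 4). Of 21 partners, Bcl6 (1.55) was higher and Gfi1 (-0.69) lower. Csf3r (0.41, adjusted p = 0.00047) and Spi1 (0.21, adjusted p = 0.040) passed the adjusted p below 1.5-fold. No other IRF or C/EBP family gene and none of 4 granulocyte or 12 monocyte and dendritic cell genes tested was called. Of the remaining lists, 2 of 5 erythroid markers (median -0.38) and the 1 T and NK cell marker tested (-0.81) were called lower. None of the HSC, megakaryocyte, B cell, macrophage or stress genes was called.

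After transplantation, none of 20350 genes was called by edgeR, so 0% was the background. Without adjustment 455 genes (2.24%) passed both p below 0.05 and 1.5-fold, and DESeq2 called 25. Cebpe was the 1 gene of the 5 among the 455, and it passed the filter on low counts only through shRNA libraries, where it was high. It had 2 and 4 reads with shControl, 75 and 10 with shRNA1 and 6 and 36 with shRNA2, up to 1.83 CPM, so every shRNA library held more reads than either control. Groups did not overlap in CPM, in either direction, for 14.7% of genes. Its log2 fold change was 3.33 (SE 1.17, unadjusted p = 0.018, adjusted p = 0.85), and without shRNA1 replicate 1, the highest library, it was 2.50 (adjusted p = 0.94).

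Granulocyte genes varied between the same libraries. Their summed level over 18 genes was 406 and 191 CPM with shControl, 1076 and 387 CPM with shRNA1 and 235 and 701 CPM with shRNA2, highest in the 2 libraries with most Cebpe, and the median log2 fold change of the list was 2.60 with no gene called. Mpo read 35.97 and 1.17 CPM with shControl and 182 CPM in shRNA1 replicate 1, but 2.72 CPM in shRNA2 replicate 2. The part of such cells or RNA in the difference of Cebpe was not tested.

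The other 4 genes stayed close to the controls after transplantation. Cebpb read 49.6 and 58.0 CPM with shControl, 54.8 and 65.7 CPM with shRNA1 and 45.4 and 52.8 CPM with shRNA2 (log2 fold change 0.02, SE 0.137). Irf8 (0.07, SE 0.195), Cebpd (0.07, SE 0.210) and Cebpa (0.26, SE 0.436) were within the spread of the libraries. The test of the difference between both experiments gave -0.42 for Cebpb and 0.57 for Irf8 (unadjusted p = 0.032 and 0.032, adjusted p = 0.51 and 0.51), and none of the 5 passed (0.168% of 21443 genes did). An effect in culture that differs from that after transplantation was therefore not shown.

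**Figure D5:**
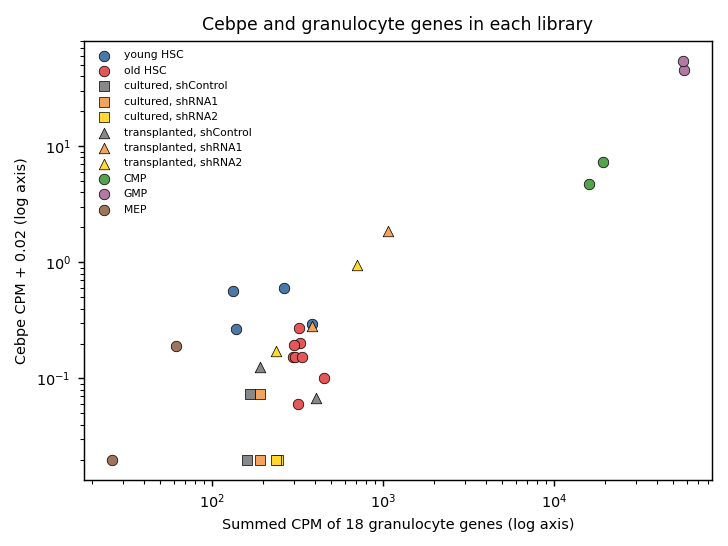
Cebpe (CPM + 0.02) against the summed CPM of 18 granulocyte genes in each of the 30 mRNA-seq libraries, both axes on a log scale; shape and colour give the group. GMP and CMP lie at the upper right, and among the transplanted libraries (triangles) the highest Cebpe, 1.83 CPM, goes with the highest granulocyte sum, 1076 CPM.

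Over the 11 group means, the profiles of Cebpa and Irf8 were the most alike of any 2 of the genes, with a Pearson correlation of log2(CPM + 1) of 0.97, followed by Cebpa and Cebpe (0.93). Cebpa and Cebpb had 0.31. These values describe 11 groups that share libraries of the same experiments, and the contrast of CMP and GMP with all other groups carries much of them. Among 11792 genes, those most like Cebpa were Mcpt8 (0.993), Chdh, Ptger2, Diras2 and Tifab. Most like Irf8 were Tmem119 (0.995), S1pr3, Pkib, Nrp1 and Ccl9, and most like Cebpe were Mgl2 (0.993), Siglece, Clec5a, Trem3 and Alas1. Cebpb was nearest to Fkbp11 (0.971), Pdia5, Gys1, Gmppa and Snx7, and Cebpd to Tex2 (0.973), Txndc11, Mgat2, P4hb and Hyou1.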

How the data were processed

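mRNA-seq: per the labels and methods, the authors trimmed reads with trim galore 0.4.3 and cutadapt 1.12, used STAR on mm10 and featureCounts per gene of GENCODE M22, and the deposited values are raw counts. ATAC-seq: the authors aligned with BWA, removed duplicates and blacklisted regions, and deposited raw counts per consensus region. No shift of reads for the transposase is stated. ChIP-seq: the deposited values are a signal per peak from libraries the authors scaled to a common read depth. The authors' fold change columns (old to young, and its log2) and 8 columns of per-sample values that match no listed sample were not used.

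Counts were tested with edgeR 4.0.16 (quasi-likelihood, robust, TMM, filterByExpr) in R 4.3.3, over all genes or regions, with Benjamini-Hochberg adjustment; H3K27ac with limma 3.58.1. DESeq2 1.42.0, other size factors, no filter, a replicate block, single shRNAs and omitted libraries were alternatives. The 5 genes and the 13 gene lists were chosen with earlier results of these data known. Beside the 5 genes, at most 4 genes per list and comparison, called and without overlap, were to be named, and the 5 genes nearest in profile. Csf3r, Trib1, Stat3, Spi1 and Mpo were named after their values were seen. The pipeline was tested on simulated data. Some items are not reported here. Printed levels are plain CPM. Counts carry no molecular identifiers, so limits from read numbers cover counting error only. Duplicated libraries were not found.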

Additional observations from a re-analysis of the deposited data

Results flagged for a closer look

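Of 30 groups of 4 to 10 libraries checked, 1 held a library far from the others, and chance alone gives about 1 in 20. It was the accessible region 26.4 kb downstream of Cebpb in YHSCs, where replicate 1 stood at 2.61 CPM and the other YHSC libraries at 1.65 to 1.81 CPM. All 4 lay above the OHSC libraries, and the region passed the filter on low counts only through these 4 YHSC libraries.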

How the results depend on the processing

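Of 893 values under alternatives, 821 kept their direction and side of the p threshold (or, for counts, stayed within 1.5 times). With the 1.5-fold limit applied too, 13 values changed a call, 4 for Irf8 with age, 5 for the region at -2.3 kb from Cebpe, and from CMP to GMP 2 for Cebpd and 1 each for Cebpa and Irf8. With age, Cebpa was 0.069 with the replicate block and between -0.14 and 0.031 with a library left out. In culture, the genes called numbered 322 without the filter, 372 for shRNA1 alone, 333 for shRNA2 alone, 676 without adjustment and 79 to 189 with a library left out. Irf8 was -0.49 without the filter, and Cebpb 0.39 to 0.50 with a library left out. After transplantation, DESeq2 called 25 genes and unadjusted p values 455, 1 of the 5 genes among them. With shRNA2 alone Cebpb was -0.13, Cebpd -0.21 and Irf8 -0.077. Leaving out libraries gave Cebpa -0.013 to 0.59, Cebpb -0.10 to 0.14, Cebpd -0.086 to 0.24 and Irf8 -0.034 to 0.13. From CMP to GMP, the ranges were 0.27 to 0.69 for Cebpa, 0.62 to 1.24 for Cebpd and 0.23 to 0.62 for Irf8, Irf8 was 0.43 with the replicate block, and Cebpd 0.93 in the 2 groups alone. For the difference between experiments, 162 genes passed with DESeq2, 66 without the filter, 21 with the replicate block and 1 to 79 with a library left out, and Cebpd was 0.0038 with DESeq2, 0.0037 with its size factors and -0.16 to 0.17 with a library left out. Replicate numbers are not stated to mark pairs, and the block changed no call of the 5 genes by the rule of 1.5-fold and adjusted p.

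For ATAC-seq, no paired analysis was possible because YHSC (1 to 4) and OHSC (5 to 8) libraries share no numbers. Omitting a library left 2 to 5 of the regions near the genes called. The first omissions filtered the regions anew and gave 2 to 4; holding the tested regions fixed, added after the data were seen, gave 3 to 5. The region at the start of Cebpb ran from -0.073 to 0.022 (0.022, 0.013 and 0.012 without YHSC 2, YHSC 4 or OHSC 7 and the regions held fixed), that of Cebpa from -0.22 to -0.14 and that of Irf8 from -0.38 to -0.25. For H3K27ac, 87 to 4809 peaks passed limma with a library left out against 1257 with all. The Cebpb peak was -0.0059 at equal medians and -0.14 to 0.28 with a library left out, and the Irf8 start peak -0.17 to 0.018. Few reads limited what could be detected for Cebpa and Cebpe in HSCs. The cause of each shift was not tested.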
